A study of Mus musculus with 6 samples.

Results

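The 9 genes described here carry salt out of the tubular fluid in the thick ascending limb of Henle's loop and in the distal convoluted tubule (DCT), or set the activity of that transport. They were chosen by name, with earlier results of these data known. Each of the 9 symbols matched 1 of the 25031 rows of the raw count table. All 9 were among the 15416 genes that passed the filter on low counts. All 6 libraries come from kidneys of male wild-type C57BL/6 mice, 7 to 8 weeks old, in which blood flow to both kidneys was stopped for 23 minutes at a body temperature of 37 °C and then restored, a model of acute kidney injury. The vehicle group (3 libraries) was given saline right after the injury. The CePPy group (3 libraries) was given 5 mg/kg of (+)CePPy by vein at the same point, which the series title describes as positively charged polypyrrole nanoparticles doped with Ce. Uninjured kidneys were not analysed here, so both groups are injured, and the labels used here state no time of collection.

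In the thick ascending limb, the cotransporter NKCC2 (Slc12a1) takes up sodium, potassium and chloride from the fluid. Potassium returns to the fluid through ROMK (Kcnj1), and chloride leaves the cell through channels that need the subunit barttin (Bsnd). In the DCT the thiazide-sensitive cotransporter NCC (Slc12a3) takes up sodium and chloride, while Kir4.1 (Kcnj10) sets the potassium conductance of the blood-facing membrane. The kinases WNK1 and WNK4 (Wnk1, Wnk4) activate SPAK (Stk39), which phosphorylates and activates both cotransporters, and the adaptor KLHL3 (Klhl3) brings WNK kinases to a ubiquitin ligase for degradation. Loss of several of these proteins in people gives inherited salt wasting, and mutations that keep WNK kinases from being degraded give familial hypertension with high potassium.

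Total counts ranged from 29762157 to 37415213 per library, and levels are given as CPM, the count scaled to library size, where a single count is worth 0.0266 to 0.0333 CPM. Each of the 9 genes had at least 317 counts in every library. In 8 of the 9 CePPy 1 was the highest of the 6 libraries, so many values, though not all, are also given without it. The labels do not tie each library to its own animal, so the p-values reflect only how much these 6 libraries vary, part of which may be technical. Kidney RNA is bulk RNA, and fewer cells of a segment and less RNA per cell cannot be told apart.

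Upstream sequences are shown for the cotransporter gene with the largest difference of the 9, for the thick limb channel gene Kcnj1, and for Slc12a3, the DCT cotransporter gene whose groups overlapped. RefSeq (GRCm38.p6) gave a promoter window for 8 of the 9 genes, and Bsnd was not among them. The sequences run 5′ to 3′ on the strand of the gene, from 250 bases before the RefSeq start site and only as far as no GENCODE exon begins. They lie at chr2:125152350-125152504 (plus strand), chr9:32393735-32393984 (plus strand) and chr8:94328958-94329200 (plus strand), in that order. The Kcnj1 window belongs to 1 of its 3 annotated GENCODE transcripts. Capitals mark matches to the motifs named next.
Slc12a1: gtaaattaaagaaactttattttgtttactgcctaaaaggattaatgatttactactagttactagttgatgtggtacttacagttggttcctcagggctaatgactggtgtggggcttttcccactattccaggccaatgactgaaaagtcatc
Kcnj1: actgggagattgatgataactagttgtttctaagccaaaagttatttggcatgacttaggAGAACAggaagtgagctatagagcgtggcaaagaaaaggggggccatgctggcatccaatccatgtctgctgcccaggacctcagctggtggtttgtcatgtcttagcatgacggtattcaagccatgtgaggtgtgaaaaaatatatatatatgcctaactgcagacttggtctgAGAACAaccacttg
Slc12a3: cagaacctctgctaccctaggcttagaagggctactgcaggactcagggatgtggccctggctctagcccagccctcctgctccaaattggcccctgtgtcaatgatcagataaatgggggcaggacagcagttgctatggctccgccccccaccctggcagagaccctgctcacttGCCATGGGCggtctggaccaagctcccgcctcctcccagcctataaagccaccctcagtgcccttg

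The 4 motifs searched on both strands of the 250 upstream bases were AAGGTCA (nuclear receptor extended half-site), GTTAAT (HNF1 half-site), GCCNNNGGC (AP-2 palindrome) and AGAACA (steroid receptor half-site). Of 32851 promoter windows, 4.08%, 6.43%, 13.7% and 16.1% held a match, in that order. No match was found upstream of Slc12a1 or Klhl3, and the RefSeq start of Klhl3 matched 0 of its 2 GENCODE transcripts. Kcnj1 held 2 steroid receptor half-sites, at -190 to -185 and -14 to -9 from the start site, and Kcnj10 held 1, on the opposite strand. The AP-2 palindrome was found in 5 of the 8 windows, those of Slc12a3, Kcnj10, Wnk1, Wnk4 and Stk39. These 5 windows had a GC content between 61.2% and 82.4%, against 39.6% for Slc12a1, 44.8% for Kcnj1 and 53.2% for Klhl3. A match is a description of letters and does not show that a factor binds there.

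The 2 groups were compared to see how transcript levels in injured kidneys differ with the nanoparticles. All 9 genes had higher means after CePPy (8 of the 9 without CePPy 1). Their log2 fold changes ran from 0.12 (Wnk4) to 1.69 (Slc12a1), with a median of 0.39 (0.28 without CePPy 1). Over all genes tested the median was 0.003, and 7781 of 15416 had higher values. None of the 9 passed the edgeR test over all genes, whose lowest adjusted p among them was 0.11 (Bsnd). That test called 0 genes higher (0%) and 1 lower (0.00649%), the provisional entry NewGene_5251. In the same test 5 of the 9 had an unadjusted p under 0.05 with higher values, against 9.65% of all genes. For lower values the share of all genes was 9.37%, and none of the 9 was among them. In 5 of the 9 (55.6%) each CePPy library lay above each vehicle library, as did 12.3% of all genes. The 5 were Slc12a1, Kcnj1, Bsnd, Wnk1 and Stk39. Because the 9 were chosen with earlier results known and were read in the same 6 libraries, their shares beside those of all genes are descriptive only.

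**Figure D1:**
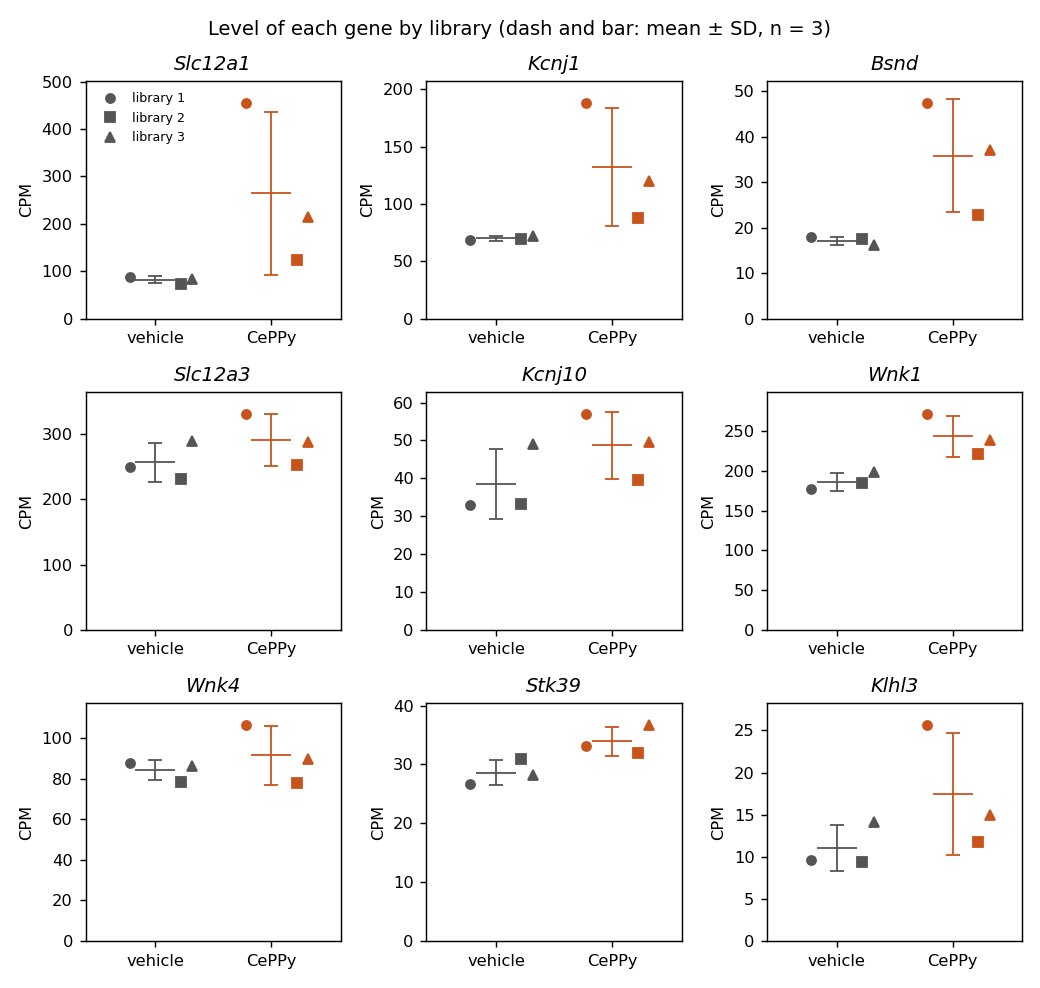
CPM of each of the 9 genes (y axis, each panel from 0) in the 3 vehicle (grey) and 3 CePPy (orange) libraries, with mean and SD. The CePPy values of Slc12a1, Kcnj1 and Bsnd lie above all vehicle values and spread widely, from 123 to 456 CPM for Slc12a1, while those of Slc12a3 and Wnk4 overlap vehicle.

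Slc12a1 (ENSMUSG00000027202, chromosome 2, 125152505 to 125230002, plus strand, GRCm38), the gene for the target of loop diuretics, had the largest fold change of the 9. It measured 88.8, 73.6 and 83.7 CPM in vehicle 1, 2 and 3 and 456, 123 and 214 CPM in CePPy 1, 2 and 3. The groups did not overlap, and CePPy 1 lay far above the other CePPy libraries, of which CePPy 2 was nearest to vehicle. The means were 82.0 ± 7.72 and 264 ± 172 CPM (SD, n = 3 each), a ratio of 3.22 and a log2 fold change of 1.69 (SE 0.41, 95% interval 0.74 to 2.64, edgeR adjusted p = 0.118). In rank of fold change it stood 124 of the 15416 genes tested. Without CePPy 1 the log2 fold change was 1.04 (edgeR adjusted p = 0.105), and without CePPy 2 it was 2.03 (edgeR adjusted p = 0.0172).

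Kcnj1 (ENSMUSG00000041248, chromosome 9, 32372493 to 32399197, plus strand), the apical potassium channel that keeps NKCC2 supplied, measured 68.6, 69.2 and 71.9 CPM in vehicle and 188, 87.5 and 120 CPM in CePPy 1, 2 and 3. Its vehicle libraries lay close together, and CePPy 2 stood nearest to them. The means were 69.9 ± 1.79 and 132 ± 51.5 CPM (log2 fold change 0.92, SE 0.24, 95% interval 0.36 to 1.48, edgeR adjusted p = 0.13). Without CePPy 1 the log2 fold change was 0.57 (edgeR adjusted p = 0.115).

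Bsnd (ENSMUSG00000025418, chromosome 4, 106483456 to 106492283, minus strand), the barttin gene, measured 17.9, 17.4 and 16.1 CPM in vehicle and 47.5, 22.8 and 37.2 CPM in CePPy 1, 2 and 3. The groups did not overlap, and CePPy 2 was again the library nearest to vehicle. The means were 17.2 ± 0.916 and 35.8 ± 12.4 CPM (log2 fold change 1.06, SE 0.24, 95% interval 0.52 to 1.61, edgeR adjusted p = 0.11). Without CePPy 1 the log2 fold change was 0.81 (edgeR adjusted p = 0.126). Barttin serves chloride exit in the thick limb, the DCT and beyond.

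The DCT cotransporter gene Slc12a3 (ENSMUSG00000031766, chromosome 8, 94329201 to 94366214, plus strand) had overlapping groups. It measured 250, 231 and 289 CPM in vehicle and 331, 253 and 289 CPM in CePPy 1, 2 and 3, so vehicle 3 lay above CePPy 2 and level with CePPy 3. The log2 fold change was 0.18 (SE 0.13, 95% interval -0.11 to 0.48, edgeR adjusted p = 0.473), and it was 0.08 without CePPy 1, 0.11 without vehicle 2 and 0.27 without vehicle 3. Kcnj10 (ENSMUSG00000044708, chromosome 1, 172341210 to 172374085, plus strand) also overlapped, at 33.0, 33.1 and 49.1 CPM in vehicle and 57.0, 39.5 and 49.6 CPM in CePPy. Vehicle 3 was again close to CePPy 3, and the log2 fold change was 0.34 (SE 0.19, 95% interval -0.09 to 0.78, edgeR adjusted p = 0.36). Leaving out CePPy 1 gave 0.22 for Kcnj10, and leaving out vehicle 3 gave 0.56.

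Among the kinases, Wnk1 (ENSMUSG00000045962, chromosome 6, 119923969 to 120038672, minus strand) measured 177, 184 and 199 CPM in vehicle and 272, 222 and 239 CPM in CePPy, with no overlap. Its mean was 187 ± 11.2 and 244 ± 25.8 CPM (log2 fold change 0.39, SE 0.10, 95% interval 0.15 to 0.62, edgeR adjusted p = 0.128). The log2 fold change of Wnk1 was 0.30 without CePPy 1. The table has 1 row for Wnk1, which has 26 annotated transcripts, so the kidney-specific short form, which lacks the kinase domain and is made mostly in the DCT, cannot be told apart from full-length WNK1. Wnk4 (ENSMUSG00000035112, chromosome 11, 101260567 to 101277409, plus strand) measured 87.6, 78.5 and 86.5 CPM in vehicle and 107, 78.0 and 89.9 CPM in CePPy. CePPy 2 was the lowest of its 6 libraries and CePPy 1 the highest (log2 fold change 0.12, SE 0.12, 95% interval -0.16 to 0.39, edgeR adjusted p = 0.616). Without CePPy 1 its log2 fold change was -0.002 (edgeR adjusted p = 0.995), so the higher mean of Wnk4 rests on that library. It was 0.22 without CePPy 2 and 0.07 without vehicle 2. Its exons overlap those of the antisense gene Gm11615 in the annotation, and reads of the pair cannot be told apart if the counting ignored strand.

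Stk39 (ENSMUSG00000027030, chromosome 2, 68210445 to 68472268, minus strand) measured 26.6, 30.8 and 28.3 CPM in vehicle and 33.1, 31.9 and 36.7 CPM in CePPy 1, 2 and 3. CePPy 2 lay only just above vehicle 2, so the groups were narrowly separate (log2 fold change 0.25, SE 0.10, 95% interval 0.02 to 0.47, edgeR adjusted p = 0.227). Klhl3 (ENSMUSG00000014164, chromosome 13, 58000228 to 58113592, minus strand) measured 9.66, 9.33 and 14.1 CPM in vehicle and 25.7, 11.8 and 14.97 CPM in CePPy. Vehicle 3 lay above CePPy 2, and the log2 fold change of 0.66 (SE 0.29, 95% interval -0.02 to 1.34, edgeR adjusted p = 0.274) was 0.28 without CePPy 1.

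The CePPy libraries differed among themselves in 1 order for most of the 9 genes. In 8 of the 9 the order was CePPy 1, then 3, then 2, the exception being Stk39, highest in CePPy 3, and 21.7% of all 15416 genes had that order. The median of the 9 genes lay 0.57, 0.16 and 0.37 log2 units above their vehicle means in CePPy 1, 2 and 3. Slc12a1 lay 2.47, 0.58 and 1.38 units above its vehicle mean in these libraries, and Bsnd 1.47, 0.41 and 1.12 units. Slc12a3 lay 0.37, -0.02 and 0.17 units from its vehicle mean, and Wnk4 0.34, -0.11 and 0.09 units.

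**Figure D2:**
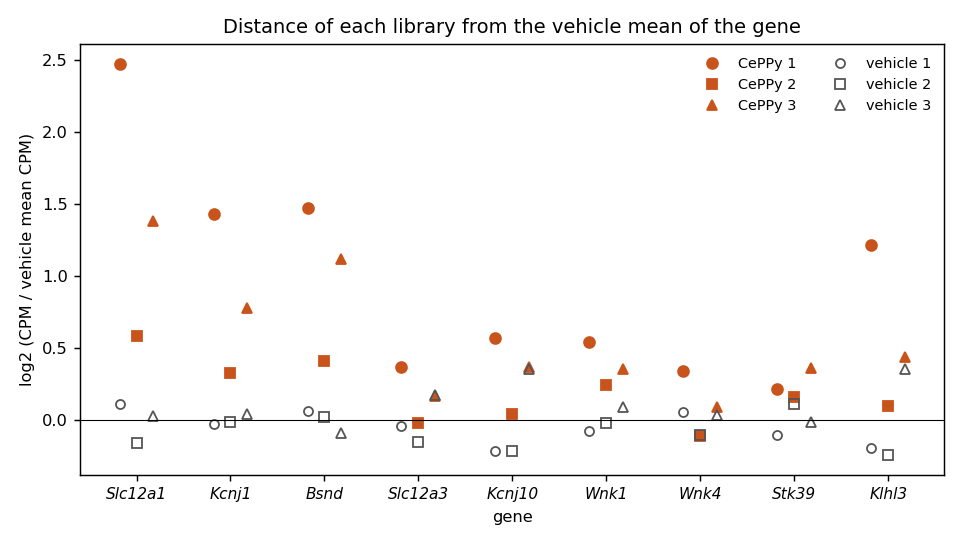
Log2 ratio of each library's CPM to the vehicle mean of the gene (y axis) for the 9 genes (x axis), with CePPy libraries filled and vehicle libraries open. CePPy 1 is the highest point for 8 genes and reaches 2.47 for Slc12a1, while Stk39 is highest in CePPy 3.

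Likeness between the 9 patterns was measured as the root mean square difference of log2 CPM over the 6 libraries, after the vehicle mean of each gene was subtracted. The closest pair was Slc12a3 and Wnk4, at 0.088 log2 units, followed by Wnk1 and Stk39 at 0.155 and Kcnj1 and Bsnd at 0.157. The farthest pair was Slc12a1 and Wnk4, at 1.06. Outside the 9, the 5 annotated genes nearest to Slc12a1 were Ttc36 (0.161), Nat8f6 (0.162), Sectm1b (0.172), Aacs (0.186) and Car14 (0.201), taken from 236 candidates limited to genes whose own difference was large enough to be compared. The 5 nearest to Slc12a3 were Pptc7 (0.029), Alpl (0.039), Tmem116 (0.043), Rbl2 (0.043) and Vegfa (0.045), from 3443 candidates. The 5 nearest to Wnk1 were Lrrk2 (0.032), Dmxl1 (0.043), Pdia4 (0.049), Mttp (0.052) and Hsp90b1 (0.052), from 10896 candidates. No minimum difference was set for pairs among the 9 or for the genes nearest to Wnk1. The distances are not scaled, so genes with small differences can lie close together for that alone. They describe the pattern over these 6 libraries and say nothing of shared function.

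Ratios of counts within a library do not depend on how libraries are scaled. The 8 ratios computed were chosen after their values were seen, so their p-values are descriptive only. The ratio of Slc12a1 to Slc12a3 counts was 0.355, 0.319 and 0.289 in vehicle and 1.38, 0.485 and 0.741 in CePPy 1, 2 and 3. All 3 CePPy ratios were above all vehicle ratios, and CePPy 1 had the highest. The mean log2 ratio differed by 1.31 (exact two-sided permutation test over libraries, p = 0.1, the smallest that 3 against 3 allows, and 0.133 adjusted over the 8 ratios computed). The ratio of Kcnj1 to Slc12a3 was 0.274, 0.300 and 0.249 in vehicle and 0.569, 0.346 and 0.415 in CePPy, again with no overlap (exact permutation p = 0.1). Between the kinases, Wnk1 had 2.02, 2.35 and 2.30 times the counts of Wnk4 in vehicle and 2.56, 2.84 and 2.66 times in CePPy (exact permutation p = 0.1, again 0.133 adjusted). The ratio of Slc12a3 to Wnk4 ranged from 2.85 to 3.35 in vehicle and from 3.11 to 3.25 in CePPy (difference 0.07 log2 units, exact permutation p = 0.4).

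Levels between genes were compared per length, in TPM, the count per exon length scaled to the same total in each library. In vehicle, with the length of all exons together, the order was Slc12a3 (55.8 ± 3.42 TPM), Kcnj1 (50.8 ± 1.66), Wnk4 (49.2 ± 2.83), Slc12a1 (34.5 ± 3.28), Wnk1 (19.8 ± 0.571), Kcnj10 (17.1 ± 3.08), Bsnd (15.1 ± 1.58), Stk39 (13.997 ± 1.48) and Klhl3 (3.63 ± 0.661). The first 3 overlapped from neighbour to neighbour, as did Wnk1, Kcnj10, Bsnd and Stk39, while Slc12a1 stood clear of its neighbours on both sides and Klhl3 stood clear below. In CePPy Slc12a1 came first at 104 ± 61.9 TPM, with Kcnj1 at 91.1 ± 30.1 and Slc12a3 at 60.8 ± 5.10 next, and each of these overlapped its neighbour. The length used matters for this order. With the longest transcript in place of all exons, Slc12a3 measured 119 TPM in vehicle and 132 TPM in CePPy, where it came before Slc12a1 at 107 TPM. With that length Slc12a1 (32.2 to 38.4 TPM in vehicle) overlapped Wnk1 (31.97 to 33.73 TPM). With the coding length Wnk4 ranked 6 of the 9 in vehicle at 22.5 TPM, and Slc12a1 (22.43 to 27.005 TPM) overlapped both Wnk1 (22.3 to 23.8 TPM) and Wnk4 (21.3 to 23.8 TPM). Slc12a3 came first and Klhl3 last in vehicle under each of the 3 lengths tried.

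Genes that work beside the 9 in the same cells were taken from a list of 16 channels, pumps, claudins and receptors. Of these, 15 had higher means after CePPy and 0 passed the edgeR test over all genes. The median log2 fold change was 0.36 (without CePPy 1, 14 were higher and the median was 0.26). Values in brackets for the partners are log2 fold changes with their SE. Cldn19, a claudin needed for magnesium reabsorption in the thick limb, measured 15.9, 22.2 and 16.6 CPM in the vehicle libraries and 44.1, 33.8 and 42.3 CPM in the CePPy libraries (1.14 on the log2 scale, SE 0.16, edgeR adjusted p = 0.0739). The prostaglandin E2 receptor gene Ptger3, the calcium-sensing receptor gene Casr and the sodium pump gene Atp1b1 had log2 fold changes of 0.80, 0.64 and 0.51, with CePPy above vehicle in every library. Umod, the uromodulin gene, measured 2596 ± 185 and 4128 ± 1144 CPM (0.67, SE 0.19). Within each library, Slc12a1 counts were 0.0357, 0.0262 and 0.0336 of Umod counts in vehicle and 0.0843, 0.0384 and 0.0566 in CePPy (exact permutation p = 0.1). This ratio is also 1 of the 8 chosen after their values were seen.

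Partners of the kinases were read from another list. Of its 15 genes of the WNK and SPAK network 11 had higher and 4 lower means, and 0 passed the test. The median log2 fold change was 0.11 (0.08 without CePPy 1). Cab39l, a gene of the MO25 family that helps activate SPAK, measured 56.0, 56.2 and 52.9 CPM in vehicle and 67.0, 62.6 and 68.7 CPM in CePPy (0.27, SE 0.07, edgeR adjusted p = 0.139). Hsd11b2, which keeps cortisol and corticosterone from the mineralocorticoid receptor, had 0.36 (SE 0.12), the phosphatase inhibitor gene Ppp1r1a 0.86 (SE 0.33) and the calcineurin gene Ppp3ca 0.22 (SE 0.09). The groups of Ppp1r1a overlapped, at 33.4, 32.1 and 29.2 CPM in vehicle and 91.1, 31.1 and 49.4 CPM in CePPy 1, 2 and 3. Sgk1, a kinase gene that responds to steroid hormones, had -0.26 (SE 0.15, edgeR adjusted p = 0.363). Oxsr1, the sister kinase of SPAK, had -0.06 (SE 0.09) with a 95% interval from -0.27 to 0.16. Cul3, the ubiquitin ligase scaffold that KLHL3 binds, had 0.11 (SE 0.08), and the KLHL3 relative Klhl2 had 0.006 (SE 0.08).

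Of the other 7 genes of the Slc12 family, 5 had higher means, 0 passed, and the median was 0.05, with a range of 0.03 (without CePPy 2) to 0.10 (without CePPy 3) when 1 library was left out. Slc12a2, the widely expressed relative NKCC1 and the closest counterpart of Slc12a1, measured 54.0 ± 1.39 and 55.7 ± 6.54 CPM (log2 fold change 0.05, SE 0.10, 95% interval -0.18 to 0.27). Slc12a4 (KCC1) and Slc12a7 (KCC4) had -0.31 (SE 0.15) and 0.15 (SE 0.09). Slc12a5 was low in both groups, at 0.87 ± 0.155 and 1.34 ± 0.142 CPM, without overlap (0.62, SE 0.32, edgeR adjusted p = 0.335). Slc12a8, also low, had -0.40 (SE 0.39).

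**Figure D3:**
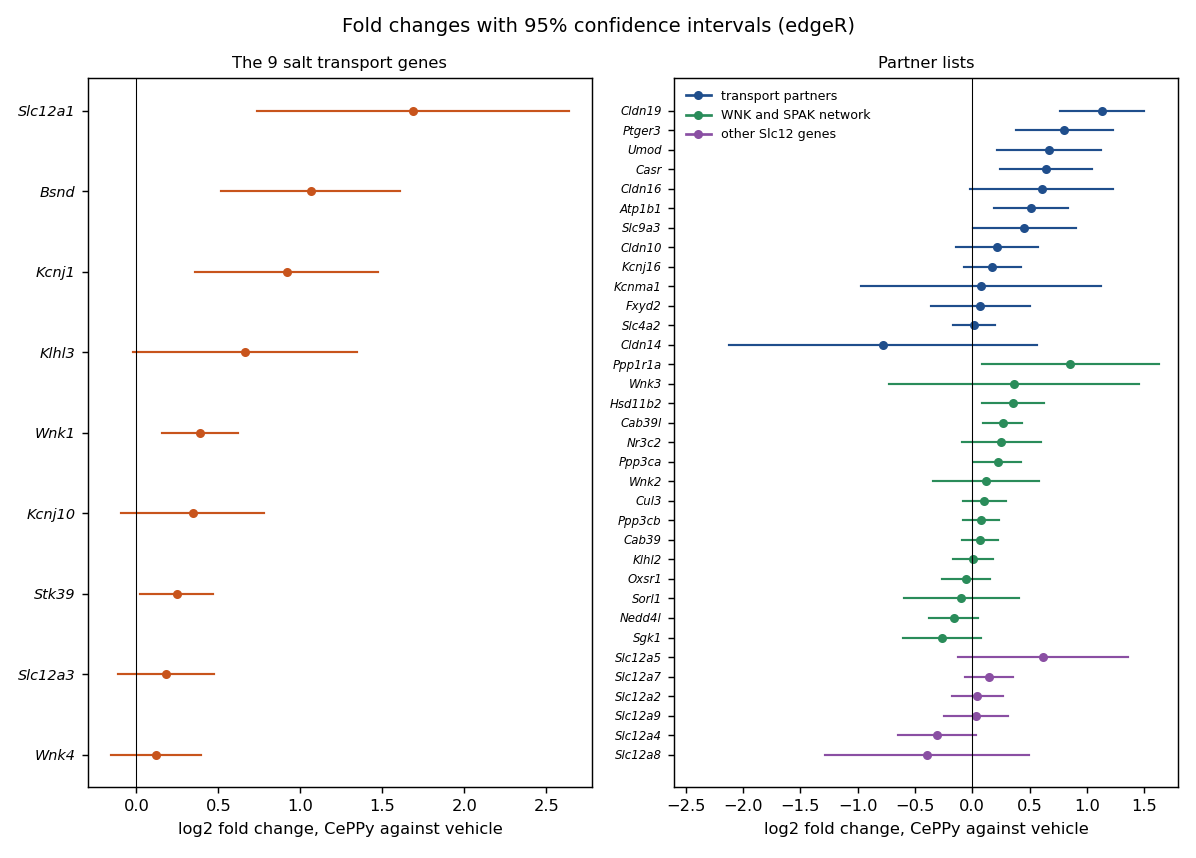
Log2 fold change of CePPy against vehicle (x axis) with its 95% interval for the 9 genes (left) and for genes of the 3 partner lists (right, coloured by list, not all genes drawn). The intervals of Slc12a1, Bsnd, Kcnj1, Wnk1 and Stk39 lie above 0, and none of the 5 passed after adjustment over all genes.

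Markers of the segments were read beside these values. No thick limb or DCT marker was at 0 in all libraries. All 11 thick limb markers had higher means after CePPy, with 0 passing and a median of 0.73 (0.55 without CePPy 1). Their summed levels were 2608 to 2948 CPM in vehicle and 3387 to 5979 CPM in CePPy. In this list Egf measured 17.4, 18.4 and 18.5 CPM in vehicle and 324, 37.9 and 111 CPM in CePPy, with CePPy 1 highest and CePPy 2 lowest of the CePPy libraries, as for Slc12a1. Markers of the DCT and connecting tubule had higher means for 11 of 12 genes tested, with 0 passing, a median of 0.37 and sums of 542 to 596 and 605 to 1008 CPM. Without CePPy 1 the count was 9 of 12 and the median 0.24. Pvalb, a calcium-binding protein of the early DCT, was near 0 in vehicle, at 0.0557, 0.324 and 0.149 CPM, and measured 7.43, 0.319 and 2.93 CPM in CePPy. Tmem52b measured 93.8, 100 and 110 CPM in vehicle and 227, 124 and 162 CPM in CePPy. Of the 4 markers of macula densa, cells that also carry NKCC2, 2 had higher means (4 without CePPy 1, and 2 or 3 without any other library), and the list summed to 8.7 to 10.7 CPM in vehicle and 9.89 to 11.7 CPM in CePPy.

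Other segments and cell types were read in the same way. The 12 proximal tubule markers all had higher means (median 0.62, 0 passing, and a median of 0.52 without CePPy 1). Their sums were 12705 to 13970 CPM in vehicle and 13667 to 24352 CPM in CePPy, highest in CePPy 1. The 12 collecting duct markers also had higher means (median 0.37, 0 passing, and a median of 0.33 without CePPy 1). Their sums were 347 to 401 CPM in vehicle and 483 to 612 CPM in CePPy. Markers of tubular injury had lower means for 11 of 12 genes (median -0.65, 0 passing; without CePPy 1, 10 of 12 and a median of -0.34), with sums of 31809 to 32644 CPM in vehicle and 17818, 34316 and 26551 CPM in CePPy 1, 2 and 3. CePPy 1 had the lowest injury sum and the highest Slc12a1, and CePPy 2 had the highest injury sum and the lowest Slc12a1 of the CePPy libraries. Most of that sum is Spp1, at 23075 to 24114 CPM in vehicle and 14477, 26822 and 21003 CPM in CePPy 1, 2 and 3. In 9 of the 12 injury genes every CePPy library, CePPy 2 included, lay below every vehicle library. The share of all genes doing so was not counted, so this count cannot be weighed against all genes. Lgals3, 1 of these 9, measured 317, 262 and 351 CPM in vehicle and 164, 204 and 184 CPM in CePPy. Podocyte and endothelial sums overlapped between the groups, at 375 to 438 and 375 to 403 CPM, and at 634 to 720 and 637 to 674 CPM. Leukocyte markers summed to 207 to 231 CPM in vehicle and 164 to 197 CPM in CePPy, and those of fibroblasts and smooth muscle to 1342 to 1825 and 1489 to 1716 CPM. The part of these markers in the values of the 9 genes was not tested.

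**Figure D4:**
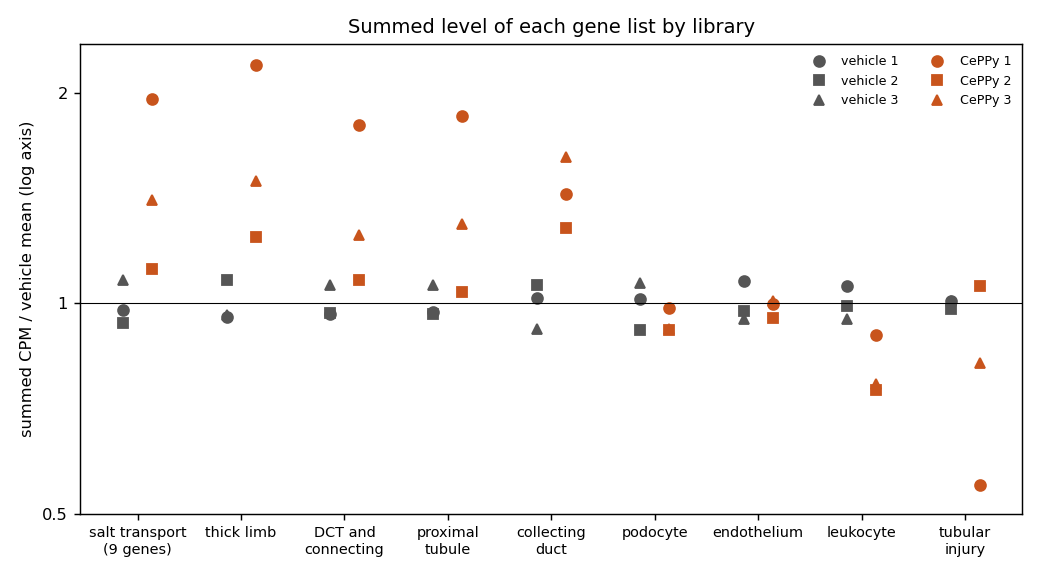
Summed CPM of each gene list divided by its vehicle mean (y axis, log scale) in the 6 libraries. The tubule lists are highest in CePPy 1 or CePPy 3, and podocyte and endothelial lists stay near 1. The injury list is lowest in CePPy 1 and above vehicle in CePPy 2, and most of its sum is Spp1.

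Which of the 9 passed depended on the tool and on single libraries. DESeq2 called Slc12a1 (adjusted p = 0.0373), Kcnj1 (0.00355), Bsnd (0.000695) and Wnk1 (0.0145) higher, among 3.42% of its genes called higher. Without CePPy 2, edgeR called the same 4 genes (adjusted p = 0.0172, 0.0209, 0.0105 and 0.0474), among 2.98% of genes. With limma-voom and sample weights, Slc12a1 (adjusted p = 0.0453) and Bsnd (0.0467) passed, among 0.96% of genes. Slc12a3, Kcnj10, Wnk4, Stk39 and Klhl3 passed under none of the 13 alternatives, with adjusted p between 0.107 and 0.995. A p above the threshold does not show that these genes were equal between the groups.

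**Figure D5:**
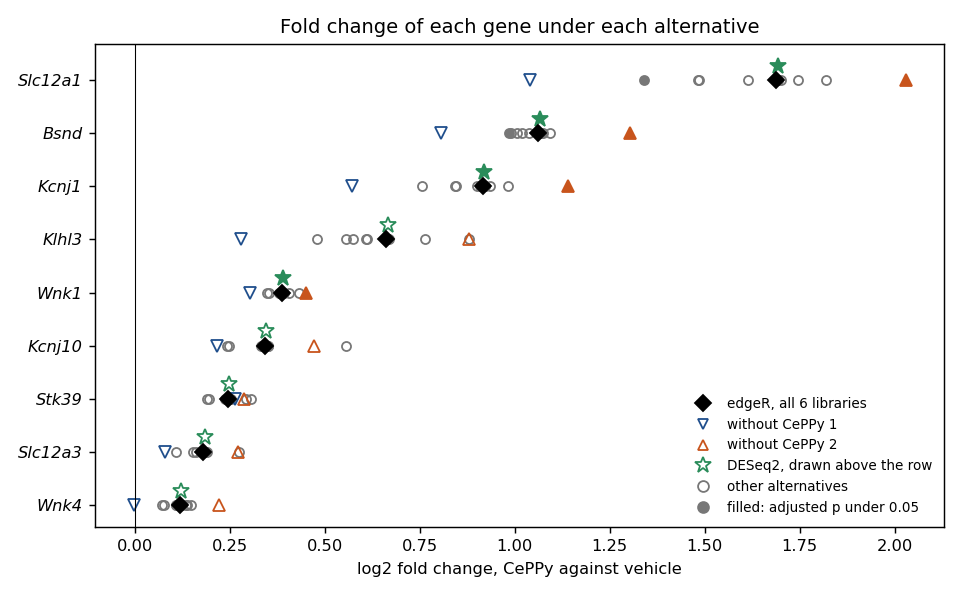
Log2 fold change of the 9 genes (rows) with all 6 libraries in edgeR (black diamonds) and under 13 alternatives (other symbols), filled where the adjusted p was under 0.05. Slc12a1 ranges from 1.04 without CePPy 1 to 2.03 without CePPy 2, and Wnk4 is at -0.002 without CePPy 1.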

How the data were processed

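RNA-seq of 6 kidney libraries was read from 1 table of raw counts, whole numbers per gene with no normalization, which the authors deposited. TopHat2, Cufflinks and DESeq (no versions) and the build GRCm38 appear in the submitters' processing notes. The sources used here do not name the counting program, its strand setting or the annotation release, and all isoforms of a gene share 1 count.

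Low genes were removed with filterByExpr and libraries scaled by TMM. The groups were compared in edgeR 4.0.16 (R 4.3.3, quasi-likelihood test, no covariate, 4 residual df), with Benjamini-Hochberg adjustment across the 15416 genes tested and a threshold of 0.05. CPM were computed on TMM-scaled library sizes. TPM used the union of exons in GENCODE M21 (GRCm38), which held 22022 of the 22036 Ensembl identifiers. The test was also run on simulated counts with known fold changes, whose outcome is not reported here and is not used as support. No simulated library was made to stand apart, so that check does not cover the spread among the CePPy libraries. Alternatives were RLE and upper-quartile scaling, no filter, DESeq2 1.42.0, limma-voom (limma 3.58.1) with and without sample weights, a replicate block and leaving out each library. Promoter windows came from RefSeq (GRCm38.p6). Members and gene lists were chosen with earlier results of these data known, and the 8 count ratios after their values were seen. All 9 members are named, then up to 5 genes per partner list and 2 per marker list by lowest p, and the 5 genes nearest to Slc12a1, Slc12a3 and Wnk1. Umod, Oxsr1, Cul3, Klhl2, Slc12a2 and Spp1 were chosen after their values were seen. Some genes of the partner lists are counted in the lists but not reported here by name.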

Additional observations from a re-analysis of the deposited data

How the results depend on the processing

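With all 6 libraries, edgeR called 0 genes higher and 1 lower, and 0 of the 9 salt transport genes. Genes called higher and lower numbered 26 and 37 without the filter on low counts, 512 and 481 with DESeq2 and 148 and 204 with limma-voom and sample weights. Of the 9 genes, DESeq2 called 4 higher and limma-voom with sample weights 2. Leaving out 1 library gave 0 to 467 genes higher, 0 to 344 lower and 0 to 4 of the 9 higher, the highest counts being without CePPy 2. With the replicate number as a block, edgeR called 0 genes higher, 0 lower and 0 of the 9, with a log2 fold change of 1.48 for Slc12a1. Same-numbered libraries deviated from their group means with correlations of -0.15, 0.0978 and -0.021. Libraries with different numbers had correlations from -0.148 to 0.18. With 3 libraries a group these values do not settle whether the numbers pair the libraries. Of 117 fold changes of the 9 genes under alternatives, 106 kept direction and side of the threshold, 10 passed it and 1 reversed, Wnk4 at -0.002381 without CePPy 1, within a range up to 0.2213 without CePPy 2. Other scaling methods moved no call. Levels per length depended on the length taken for a gene. With 3 libraries a group, an exact test over libraries cannot reach 0.05.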
